A study of Mus musculus with 461 samples.

Results

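Single-cell RNA sequencing was used to compare 79 mouse cells taken on day 5 of a reprogramming course with 58 cells taken on day 3, all of them carrying the prefix b2 in their titles. The rule that picks the cells uses prefix and day alone, and they make up 137 of the 461 cells of the study. Every cell descended from OG2 transgenic MEFs, embryonic mouse fibroblasts with a fluorescent reporter driven by Oct4 (Pou5f1), of a mixed strain with 1/2 129SVJ, 3/8 C57B6 and 1/8 CBA. The course is named 7F in the titles, the name of a published cocktail made of Kdm2b, Jdp2, Glis1, Map2k6, Esrrb, Nanog and Sall4. The labels do not list these factors, and gene counts cannot tell vector transcripts from native ones. The fibroblasts were grown with 10% serum and the reprogramming cells in iCD1, a chemically defined medium, so that day 3 and day 5 share cocktail, medium and strain and differ in the label by day. Cells of days 0, 1, 4 and 7 and of the prefixes b1 and b3 come from the same cocktail, fibroblasts and strain, and are used here only to estimate the spread or as values set beside b2.

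When fibroblasts are reprogrammed to pluripotency, the genes of the fibroblast state, among them those of the collagens and other parts of the extracellular matrix, are silenced, and the cells take on an epithelial form. The native pluripotency network, with Pou5f1, Sox2 and Nanog at its centre, becomes active, and supplied factors are no longer needed once it sustains itself. Pluripotent mouse cells divide fast with a short G1 phase and hold high levels of the proteins that license and copy DNA.

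Depth was close in both sets. The day 3 cells had 0.748 to 4.45 mega-counts each (median 1.96), and the day 5 cells 0.872 to 3.82 (median 2.30). The median number of genes with counts was 8670.5 per cell at day 3 and 8553 at day 5. Levels are given as counts per mega-count (CPM) of all cells of a set summed, scaled with TMM factors, and per cell as TPM, the deposited level scaled for length and depth, with a TPM of 1 or more taken as detection. With 1 set per day in b2 there is no test within b2, since cells are not replicates. Ratios of summed CPM carry exact binomial 95% intervals that cover counting error only. A test was possible over sets of cells that share prefix and day. It was edgeR's quasi-likelihood F test on the 8 sets with 10 or more cells, in which day 3 had 2 sets (b1 and b2) and day 5 had 1, assumed to vary as the others do. In the text "rose" and "fell" are used of genes with a Benjamini-Hochberg adjusted p under 0.05 in that test, and "higher" and "lower" of values within b2.

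Across all genes, 144 of the 22378 tested rose (0.643%) and 239 fell (1.07%), 383 in all (1.71%). Of 10081 genes with 10 or more CPM in either b2 set, 341 (3.38%) were at least 4-fold higher at day 5 and 704 (6.98%) at least 4-fold lower. By any amount 48.8% of the 10081 were higher at day 5, and the median log2 ratio was −0.03. The counts of each list below are to be read beside these shares. Of the 383 calls 84 rises and 189 falls also passed 4-fold within b2, and 4 had the opposite sign there. Of these calls 39 rises and 119 falls were also called when the b1 set of day 3 was left out (1 of the falls, Mixl1, then with the opposite sign), 78 and 106 when the b2 set was left out, and 98 and 148 without each gene's highest cell in every set. When the sums of 2 sets with fewer than 10 cells were added, among them the 5 cells of b1 at day 5, 5 rises and 7 falls were called. With fewer cells of a kind or less RNA per cell a summed level falls alike, and sums cannot tell these apart. The scatter of summed CPM places these calls among all genes.

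**Figure D1:**
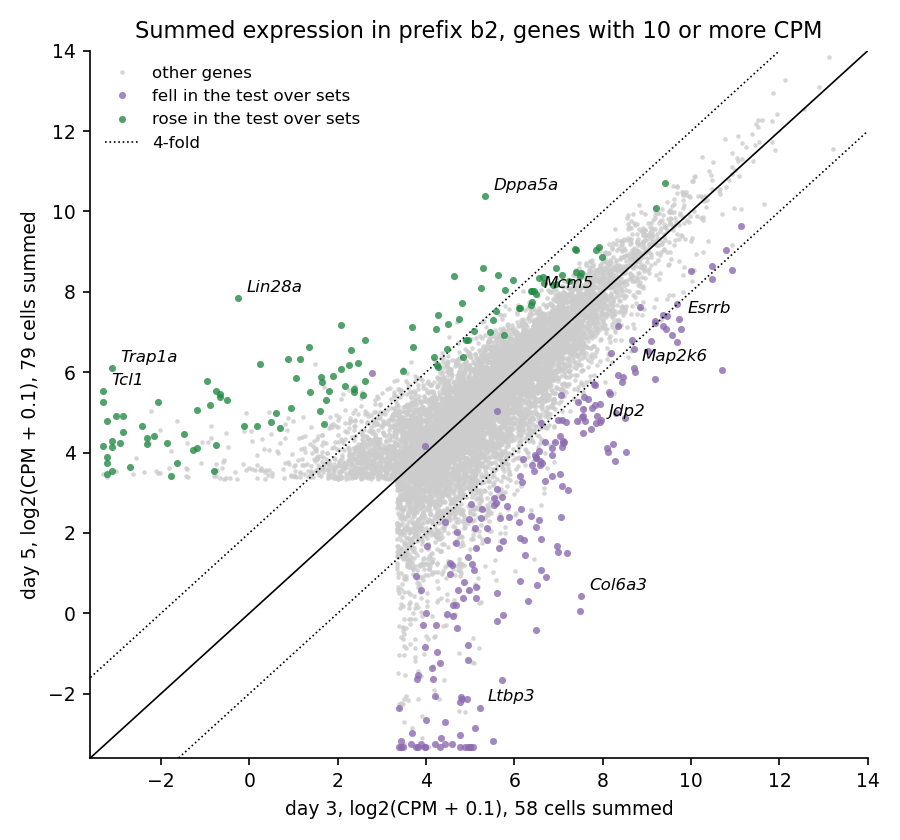
Summed expression at day 5 (79 cells, y axis) against day 3 (58 cells, x axis) of prefix b2, as log2(CPM + 0.1), for genes with 10 or more CPM in either set. The solid line marks equal levels, the dotted lines a 4-fold difference, green points the genes that rose and purple points those that fell in the test over sets. Dppa5a, Lin28a, Trap1a and Tcl1 lie above and Jdp2, Map2k6, Esrrb, Col6a3 and Ltbp3 below the 4-fold lines, while Mcm5 lies between them.

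Dppa5a (ENSMUSG00000060461), an RNA-binding protein of pluripotent cells, was 32.9-fold higher at day 5. Its summed level was 40.5 CPM at day 3 and 1334 CPM at day 5 (ratio 32.9, interval 32.04 to 33.8). In the 58 day 3 cells TPM ran from 0 over a median of 0 to 5798, and in the 79 day 5 cells from 0 over a median of 20.5 to 18845. The share of cells with the transcript was 41.4% (95% interval 28.6 to 55.1%) at day 3 and 74.7% (63.6 to 83.8%) at day 5, or 36.2% and 58.2% when every cell was thinned to 300000 counts. The day 5 cells fell into a low and a high range: 20 cells were under 1 TPM, 26 between 1 and 100, 3 between 100 and 1000 and 30 at 1000 or more. At day 3 2 cells reached 1000, and 26 of the day 5 cells lay above the highest day 3 cell. Over sets the log2 fold change of Dppa5a, which rose, was 6.02 ± 0.48 (± SE, as below; edgeR adjusted p = 1.44e-31). At day 3 1 cell held 62.3% of its b2 counts, and the b1 set of that day had 0.671 CPM. The SE comes from a spread pooled over genes, not from the distance between the b1 and b2 levels of day 3.

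Lin28a (ENSMUSG00000050966), the RNA-binding protein that blocks maturation of let-7 microRNAs, went from 2 cells to 50. It was at 0.742 CPM at day 3, 99.0% of it in 1 cell, and at 228 CPM at day 5 (ratio 307, 252 to 379). The highest day 3 cell had 25.6 TPM. Day 5 cells ran from 0 over a median of 24.8 to 526 TPM, and 39 of the 79 were above that cell. Both b2 and b1 were below 1 CPM at day 3, and the gene rose by 8.19 ± 0.73 over sets (edgeR adjusted p = 4.14e-25). Detection was 3.45% (0.42 to 11.9%) at day 3 and 63.3% (51.7 to 73.9%) at day 5. Of the day 5 cells 40 had both Dppa5a and Lin28a, 19 had Dppa5a alone, 10 had Lin28a alone and 10 had neither. Across the 79 cells the Pearson correlation of the log2 levels of both genes was 0.27 (Spearman 0.25), beside 0.81 (0.75) for Dppa5a and Pou5f1. These are descriptions over cells of 1 set.

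**Figure D2:**
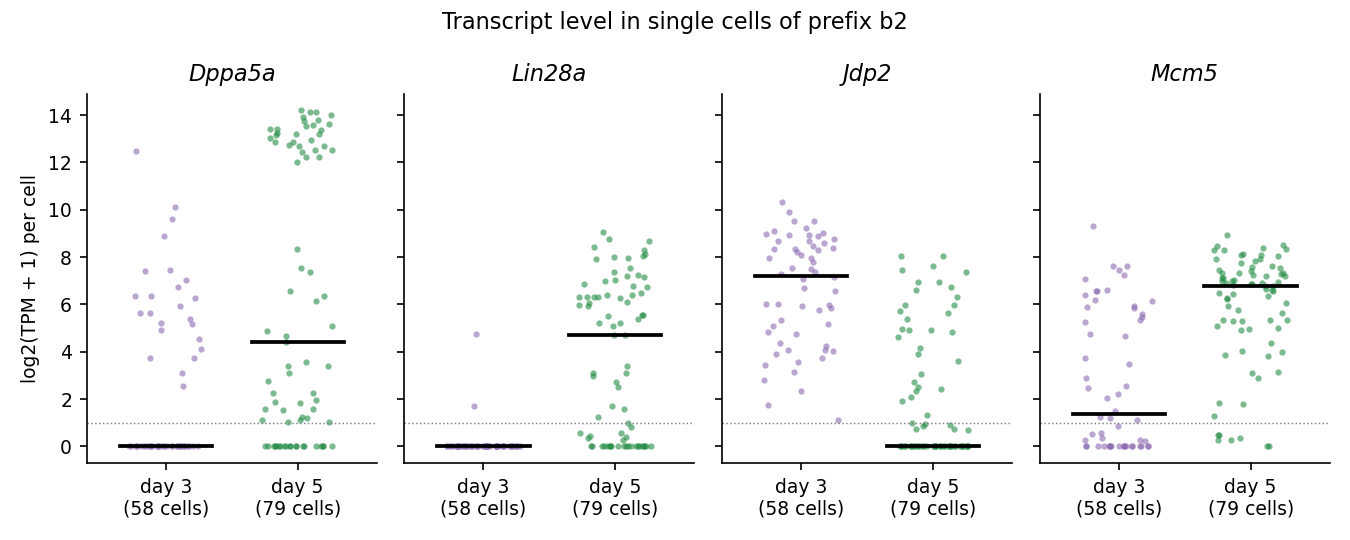
Transcript level per cell of Dppa5a, Lin28a, Jdp2 and Mcm5 in prefix b2, as log2(TPM + 1), at day 3 (58 cells) and day 5 (79 cells). Points are cells, black bars medians, and the dotted line is the detection limit of 1 TPM. Dppa5a has 30 day 5 cells at 1000 TPM or more, Lin28a is found in 2 day 3 cells, Jdp2 is found in all day 3 cells and in 40.5% of the day 5 cells, and the Mcm5 median goes from 1.57 to 109 TPM.

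The listed pluripotency genes were broadly higher at day 5. The list of 31 leaves out Nanog and Esrrb, which are counted with the factors of the cocktail below and fell. Of the 31 genes 16 rose and none fell, beside 0.643% and 1.07% of all genes. Within b2 29 of the 31 were higher, 11 of them at least 4-fold, with a median log2 ratio of 1.56 beside −0.03 over all genes. Dppa3, a maternal-effect gene that protects methylation in the early embryo, was at 4.11 CPM at day 3 and at 143 CPM at day 5 (34.9-fold) and rose by 6.12 ± 0.60 (edgeR adjusted p = 7.62e-21). Dppa4, a chromatin protein, went from 2.10 to 80.6 CPM (38.3-fold) and rose by 5.95 ± 0.94 (edgeR adjusted p = 1.41e-07). Both were in few day 3 cells, with Dppa4 in 3.45% and Dppa3 in 5.17%, and in 43.04% and 40.5% of the day 5 cells. Dppa2, the partner of Dppa4, was detected in 6.90% and 43.04% of cells and rose as well (9.43-fold within b2). Zfp42 (Rex1), a classic marker of naive cells, was 7.30-fold higher, at 18.5 and 135 CPM, and rose by 3.86 ± 0.65 (edgeR adjusted p = 1.14e-06).

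The members of the list named next differed by less within b2. Mybl2, a cell cycle transcription factor abundant in stem cells, rose with 4.79-fold within b2. Utf1, a chromatin factor of stem cells, was 5.93-fold, Trim71, a target of let-7, 3.12-fold, and Tfcp2l1 2.07-fold higher, and each rose. Gdf3 (2.92-fold), Tdgf1, a Nodal co-receptor (2.24-fold), and the glucose transporter Slc2a3 (2.27-fold) rose too. Pou5f1 (ENSMUSG00000024406) was 2.69-fold higher, with 23.4 CPM and 46.6% of cells at day 3 against 62.8 CPM and 63.3% at day 5, and its rise of 2.40 ± 0.83 did not pass (edgeR adjusted p = 0.150). Sox2 differed little within b2, at 56.5 and 46.7 CPM, with detection in 93.1% and 81.01% of cells and an edgeR adjusted p of 1. Klf4 stood at 97.0 and 110 CPM and Klf5 at 18.1 and 18.3 CPM. Spp1, which stem cells share with fibroblasts, was the other member with a lower level, at 909 CPM at day 3 and 257 CPM at day 5 (edgeR adjusted p = 0.208).

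Of the 16 genes all but Lin28a were lower in the b1 set of day 3 than in b2. When b1 was left out, 4 of the 16 were called (Dppa3, Dppa4, Dppa5a and Lin28a). All 16 were called when b2 was left out at day 3, and 10 without each gene's highest cell. In b1 at day 3 Pou5f1 had 0.525 CPM, Zfp42 0.0945 CPM and Tfcp2l1 18.7 CPM.

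The promoter of Zfp42 holds 1 copy of the octamer ATGCAAAT, the element that Pou5f1 and its relatives bind, as does that of Mageb16, a gene among the largest ratios below. Both windows are shown because the genes rose and match within 300 bases (250 before to 50 after the start). The promoter of Spp1, which was lower at day 5, holds the octamer too. Sequences are RefSeq's on GRCm38.p6, read 5′ to 3′ on the strand of the gene with the octamer in capitals, for Zfp42 chr8:43307160-43307219 (minus strand) and for Mageb16 chrX:79671586-79671645 (minus strand).
Zfp42: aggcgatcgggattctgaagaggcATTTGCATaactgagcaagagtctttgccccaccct
Mageb16: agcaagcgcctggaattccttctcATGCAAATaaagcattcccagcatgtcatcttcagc
The octamer was in 1.74% of 32851 promoters, in 4.13% of 121 promoters of genes that rose and in 5.08% of 236 promoters of genes that fell. The AP-1 element TGANTCA was in 7.81% of all promoters, in 1.65% of those of genes that rose and in 10.6% of those of genes that fell. The Esrrb-type element TCAAGGTCA was in none of the promoters of genes that rose or fell and in 0.423% of all. Both strands were searched, and a match is a description of letters.

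The factors of the cocktail went the other way. Of the 7 genes 4 fell and none rose, beside 1.07% and 0.643% of all genes. Jdp2 (ENSMUSG00000034271), a basic leucine zipper protein that opposes AP-1, was at 247 CPM at day 3 and at 26.9 CPM at day 5, 9.17-fold lower (8.91 to 9.45). Every day 3 cell held the transcript, with TPM from 1.16 over a median of 147 to 1274, whereas day 5 cells ran from 0 over a median of 0 to 263. At day 5 47 cells had less than 1 TPM and 48 were below the lowest day 3 cell. Detection was 100% (93.8 to 100%) at day 3 and 40.5% (29.6 to 52.1%) at day 5. Jdp2 fell by 3.69 ± 0.58 over sets (edgeR adjusted p = 1.53e-07).

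Map2k6, the kinase that activates p38, was 6.02-fold lower, at 415 and 69 CPM, and fell by 2.63 ± 0.54 (edgeR adjusted p = 0.000191). All day 3 cells and 53.2% of the day 5 cells held it, and 41 day 5 cells were below the lowest day 3 cell. Esrrb, an orphan nuclear receptor of the naive network, was at 853 and 159 CPM (5.36-fold lower), with a day 3 range of 23.3 to 3882 TPM and 27 day 5 cells below it, and fell by 2.83 ± 0.51 (edgeR adjusted p = 9.99e-06). Nanog was at 456 and 198 CPM (2.30-fold lower) with 31 cells below the day 3 range, and fell by 1.73 ± 0.49 (edgeR adjusted p = 0.0289). Kdm2b, a histone demethylase that recruits Polycomb complexes to CpG islands, stood at 182 and 104 CPM (edgeR adjusted p = 0.240). Sall4 was the member with the higher level at day 5, with 468 and 1014 CPM and median TPM of 76.1 and 380, without a call (edgeR adjusted p = 0.456). Glis1 was low at both days, with 3.45 and 1.01 CPM.

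When b1 was left out at day 3, Jdp2 (edgeR adjusted p = 0.00255) and Map2k6 (0.0281) were called, and Esrrb (0.0547) and Nanog (1) were not. When b2 was left out, Nanog was not called (0.141). All 7 factor transcripts were found together in 28 of 58 day 3 cells and in 6 of 79 day 5 cells, with a median of 6 and 4 per cell. Detection of Jdp2 and Map2k6 did not always go together in a cell. Of the 79 day 5 cells 23 held both, 9 held Jdp2 alone, 19 Map2k6 alone and 28 neither. At day 3 24 of the 58 cells held Dppa5a beside Jdp2, and at day 5 21 held both, 38 Dppa5a alone, 11 Jdp2 alone and 9 neither.

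Genes that license and copy DNA were higher as a group. All 38 replication genes were higher within b2, beside 48.8% of the 10081 genes, with a median log2 ratio of 0.93. Of the 38 genes 6 rose and none fell, beside 0.643% and 1.07% of all genes. Mcm5 (ENSMUSG00000005410), a subunit of the MCM2-7 helicase that is loaded at replication origins, was at 89.1 CPM at day 3 and 246 CPM at day 5, 2.76-fold higher (2.71 to 2.82). Its TPM ran from 0 over a median of 1.57 to 631 at day 3 and from 0 over a median of 109 to 481 at day 5. The ranges overlapped throughout, and the shares of cells at the low and the high end differed. Under 1 TPM were 26 of 58 cells at day 3 and 7 of 79 at day 5. Between 100 and 1000 TPM were 6 of 58 and 41 of 79. Detection was 55.2% (41.5 to 68.3%) and 91.1% (82.6 to 96.4%). Mcm5 rose by 1.97 ± 0.51 (edgeR adjusted p = 0.00945).

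The other helicase subunits were higher by 1.32- to 3.32-fold. Mcm3 was at 100 and 332 CPM (3.32-fold, edgeR adjusted p = 0.00785) and Mcm7 at 134 and 344 CPM (2.57-fold, 0.0402), and both rose. Mcm4 (168 and 371 CPM), Mcm6 (115 and 203 CPM) and Mcm2 (126 and 167 CPM) did not pass. Uhrf1, which brings the maintenance methyltransferase Dnmt1 to newly copied DNA, rose from 166 to 538 CPM (3.24-fold, edgeR adjusted p = 0.00410). Lig1, the ligase that joins Okazaki fragments, was 3.47-fold higher and rose (edgeR adjusted p = 0.0179), as did Chaf1a, a subunit of the chromatin assembly factor, at 3.85-fold (0.0488). The most abundant members without a call were Rrm2, a subunit of ribonucleotide reductase (398 and 595 CPM), and Pola2 of the primase complex (317 and 586 CPM). Over sets the fitted change of Pola2 was downward, and it turned upward when b1 was left out at day 3 (log2 change 0.89).

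The E2F-type element TTTNGCGC was in 11 of the 39 promoters of this list (28.2%), on either strand, and in 1.38% of all 32851. The windows below show it in 5 of the 6 genes that rose and in Mcm6, whose promoter holds it 3 times. The promoter of Chaf1a held none. Capitals mark the match, and where 2 matches on opposite strands overlap the capitals run on. Coordinates are GRCm38.p6: Mcm5 chr8:75109329-75109418 (plus), Uhrf1 chr17:56304103-56304162 (plus), Mcm3 chr1:20820263-20820285 (minus), Mcm7 chr5:138171849-138171878 (minus), Lig1 chr7:13278841-13278870 (plus) and Mcm6 chr1:128359736-128359835 (minus). The windows of Mcm3, Mcm7 and Lig1 lie after the start site, the others before it. Uhrf1, Mcm7 and Lig1 also have start sites in the table without a match.
Mcm5: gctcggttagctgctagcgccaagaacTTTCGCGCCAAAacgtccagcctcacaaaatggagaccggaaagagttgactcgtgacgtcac
Uhrf1: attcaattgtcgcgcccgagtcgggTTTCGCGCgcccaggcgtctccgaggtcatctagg
Mcm3: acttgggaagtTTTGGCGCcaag
Mcm7: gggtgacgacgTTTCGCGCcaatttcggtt
Lig1: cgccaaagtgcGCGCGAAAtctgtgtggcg
Mcm6: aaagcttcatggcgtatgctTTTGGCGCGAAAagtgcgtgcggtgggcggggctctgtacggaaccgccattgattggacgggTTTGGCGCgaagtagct
These matches are letters in a window and say nothing about binding in these cells. None of the 6 calls held when b1 was left out at day 3, where the edgeR adjusted p ran from 0.543 to 1, 1 held when b2 was left out (Mcm5, 0.0213) and 3 held without each gene's highest cell (Mcm3, Mcm5 and Uhrf1).

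Mitotic genes showed the same direction with fewer calls. All 24 G2/M genes were higher within b2 (median log2 ratio 0.81). Bub1, a kinase of the spindle checkpoint, rose (30.1 and 112 CPM, 3.72-fold, edgeR adjusted p = 0.0305), and it alone. Birc5 was 2.80-fold and Ccnb1 2.06-fold higher, and Top2a, at 319 and 526 CPM, and Mki67, at 96.4 and 120 CPM, differed by less. Per cell the difference was one of breadth: a median of 12 of the 24 genes were found in a day 3 cell and 23 in a day 5 cell, and all 24 in 13 of 58 and 27 of 79 cells. Likewise 25 of the 38 replication genes were found in the median day 3 cell and 34 in the median day 5 cell. The Bub1 call did not hold without either set of day 3.

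The list of CDK inhibitor and p53 target genes was mostly lower within b2. Of 20 CDK inhibitor and p53 target genes 3 fell and none rose, beside 1.07% and 0.643% of all genes. Of the 17 with 10 or more CPM 4 were higher within b2, with a median log2 ratio of −0.80. Ccng1, a cyclin induced by p53, was at 584 and 150 CPM (3.89-fold lower, edgeR adjusted p = 0.0185). Gadd45g, a stress sensor, was at 126 and 27.8 CPM (4.53-fold lower, edgeR adjusted p = 0.00955), with 36.4% of the day 5 counts in 1 cell. Cdkn1c (p57), an imprinted inhibitor, was at 1016 and 367 CPM (2.77-fold lower, edgeR adjusted p = 0.00127), and 1 cell held 50.7% of its day 5 counts. Cdkn1a (p21) went from 704 to 227 CPM, with a median of 912 and 141 TPM, and did not pass (edgeR adjusted p = 0.175), nor did Mdm2, the p53 ligase, at 404 and 105 CPM. Cdkn2a was below 1 CPM at both days, while Trp53 itself stood at 461 and 589 CPM. Of 17 cyclins and G1 regulators Ccnd2, a D-type cyclin, fell (701 and 167 CPM, edgeR adjusted p = 0.00359). No call of these 2 lists held when b1 was left out at day 3, and Cdkn1c held when b2 was.

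**Figure D3:**
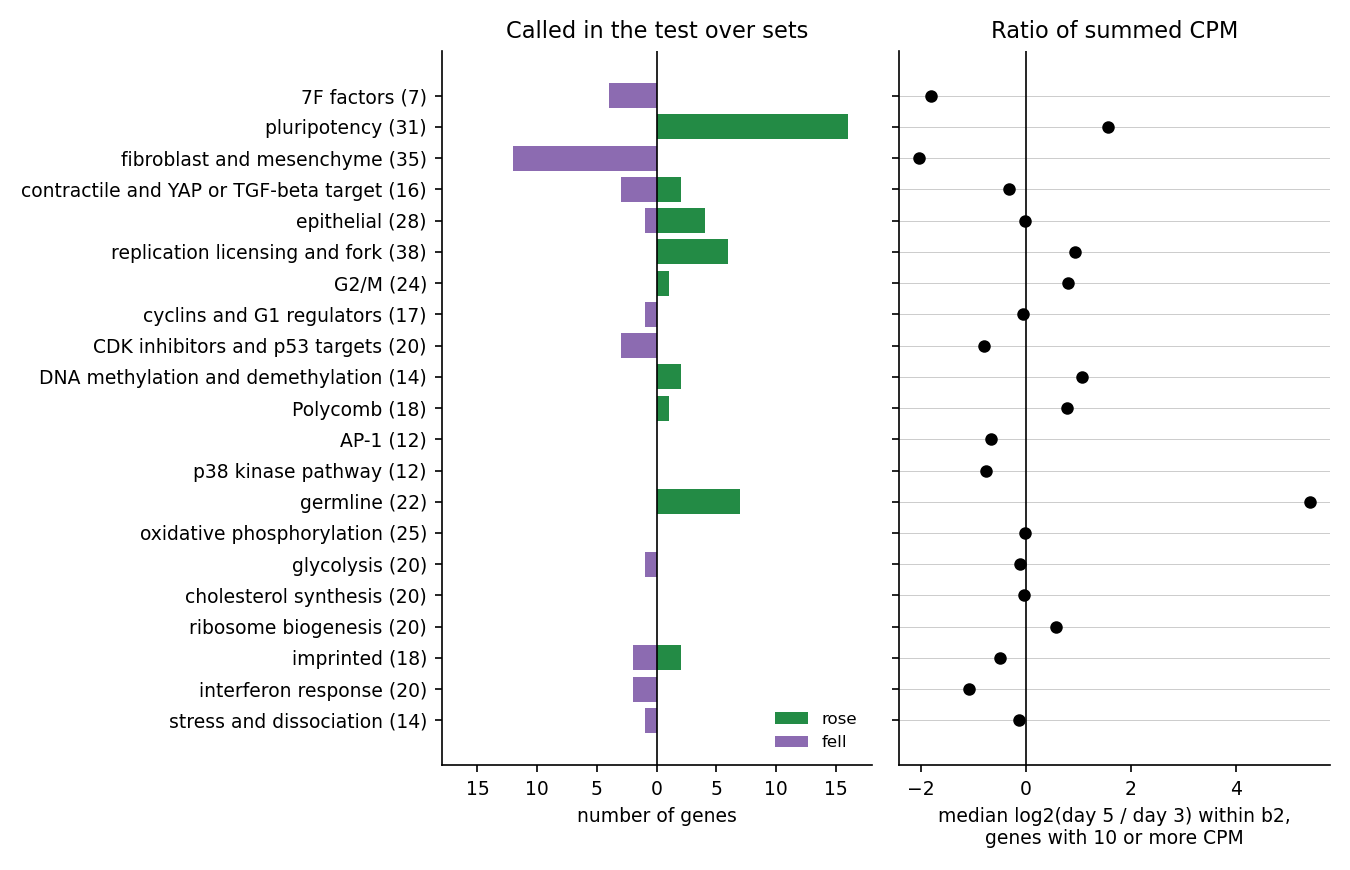
Left, the number of genes of each list that rose (green) or fell (purple) in the test over sets, with the number tested in parentheses. Right, the median log2 ratio of summed CPM, day 5 over day 3 within b2, over members with 10 or more CPM. Pluripotency has 16 rises and fibroblast and mesenchyme 12 falls, the oxidative phosphorylation and cholesterol medians lie close to 0, and the germline median rests on 4 genes.

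Fibroblast genes were lower as a group. Of 35 fibroblast and mesenchyme genes 12 fell and none rose, beside 1.07% and 0.643% of all genes. Of the 33 with 10 or more CPM in b2 17 were at least 4-fold lower and 3 were higher (median log2 ratio −2.04). The deepest falls were in collagen VI, a microfibrillar collagen of the pericellular matrix. Col6a3 (ENSMUSG00000048126) had 182 CPM and 53.4% of cells at day 3, and 1.25 CPM in 1 of 79 cells at day 5 (146-fold lower, edgeR adjusted p = 1.13e-11). Col6a1 was at 27.8 and 0.134 CPM and Col6a2 at 19.7 and 0.321 CPM, and both fell. Loxl1, which crosslinks elastic fibres, was 43.1-fold lower (70.2 and 1.63 CPM, edgeR adjusted p = 1.35e-11), and Fbln2, a fibulin of the matrix, 15.7-fold lower.

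Among regulators of the mesenchymal state, Prrx1 was found in 86.2% and 17.7% of cells (116 and 15.2 CPM) and fell by 2.90 ± 0.60 (edgeR adjusted p = 0.000242). Twist1, a driver of mesenchymal fate, was found in 74.1% and 17.7% of cells but at low levels (22.6 and 3.91 CPM), with an edgeR adjusted p of 0.838. Pdgfra, a receptor of fibroblasts that primitive endoderm also expresses, fell as well (46.7 and 6.36 CPM). S100a6, a calcium-binding protein, was found in every day 3 cell, at 289 CPM, and in 65.8% of the day 5 cells, at 43.5 CPM, and fell. Of the abundant fibrillar collagens Col1a2 fell (203 and 40.2 CPM, edgeR adjusted p = 0.00892), and Col1a1 did not pass (107 and 30.4 CPM, 0.0838). In Col1a1 1 cell held 70.9% of the day 5 counts. Thy1, a surface marker of fibroblasts, was at 27.6 and 2.13 CPM without a call.

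Some fibroblast genes were as abundant at day 5 as at day 3. Fn1, fibronectin, was found in every cell at both days, at 428 and 442 CPM with median TPM of 104 and 107. Vim (1102 and 489 CPM) and Sparc (774 and 243 CPM) were lower without a call, and Timp1 was found in 70.7% and 72.2% of cells. When b1 was left out at day 3, 9 of the 12 falls held, and when b2 was, 8. Col6a3, Col6a1, Col5a1, Loxl1, Fbln2, Prrx1 and Timp2 held without either. With the 5 b1 cells of day 5 and the 2 of day 7 both added as sets, the fitted direction of Col1a2, Col6a1, Col6a2, Prrx1, S100a6 and Timp2 turned upward, with no call.

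The contractile genes of activated fibroblasts had no common direction. Of 16 genes 2 rose, Acta2 and Ankrd1, and 3 fell, Cald1, Mylk and Cnn1, beside 0.643% and 1.07% of all genes. Over the 10 with 10 or more CPM the median log2 ratio was −0.32. When b1 was left out at day 3, 1 of the rises and 1 of the falls held. The same numbers held when b2 was left out, and without each gene's highest cell. Acta2, smooth muscle actin, was at 3.11 CPM in 8.62% of the day 3 cells and at 26.1 CPM in 15.2% of the day 5 cells, with 34.1% of the latter in 1 cell. Ankrd1 was at 0.880 and 2.26 CPM, and Cnn1 at 1.44 and 0.0375 CPM. Cald1, caldesmon, was the abundant member that fell (291 and 88.5 CPM, edgeR adjusted p = 0.0150).

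Epithelial genes had no common direction within b2. Of 28 genes 4 rose and 1 fell, beside 0.643% and 1.07% of all genes. Over the 15 with 10 or more CPM the median log2 ratio was −0.02. Esrp1, a splicing factor of epithelia, had 2 counts at day 3 and 19.5 CPM at day 5 (ratio as counted 1274, 352 to 10525, and 849 against a floor of 3 counts in the set). Rab25, a trafficking protein of epithelia, had no count at day 3 and 8.19 CPM at day 5, at least 357-fold higher against the same floor. Ap1m2, an epithelial clathrin adaptor, was 78.8-fold higher (0.528 and 41.6 CPM, edgeR adjusted p = 6.25e-05), and Elf3 22.6-fold (1.41 and 31.8 CPM). The best known members did not pass: Cdh1, E-cadherin, was at 27.8 and 81.9 CPM (edgeR adjusted p = 0.373) and Epcam at 20.8 and 51.1 CPM (0.332), with 31.03% and 50.6% of cells for Cdh1. Dsp, desmoplakin, fell (170 and 27.3 CPM, edgeR adjusted p = 0.0259). None of the 5 calls held when b1 was left out at day 3, and 2, Ap1m2 and Elf3, held when b2 was.

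Genes that write and erase DNA methylation were higher, 11 of 13 within b2 with a median log2 ratio of 1.07. Dnmt3l, the cofactor of de novo methylation in germ cells and stem cells, had 1 count at day 3 and 27.5 CPM at day 5, a ratio as counted of 3594 (645 to 141985) and of 1198 against the floor of 3 counts, in 18.99% of the day 5 cells (edgeR adjusted p = 3.34e-06). Tet1, which oxidises methylcytosine, was found in 24.1% and 70.9% of cells (83.8 and 216 CPM) and rose (edgeR adjusted p = 0.00968). Dnmt3b was found in 43.1% and 78.5% of cells (47.3 and 133 CPM) and stood just outside the threshold (edgeR adjusted p = 0.0550), and Trim28, a corepressor at imprints and retroviruses, was at 197 and 424 CPM (0.0641). Of 18 Polycomb genes Ezh2, the methyltransferase of H3K27, rose (82.8 and 260 CPM, 3.14-fold, edgeR adjusted p = 0.0326), and Eed (149 and 156 CPM) and Suz12 (152 and 176 CPM), its partners, differed little. Dnmt3l held when either set of day 3 was left out, and Tet1 when b2 was.

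Germline genes, which are silenced by methylation in somatic cells, appeared at day 5 in some cells. Of 22 tested 7 rose and none fell, beside 0.643% and 1.07% of all genes. Of the 23 listed genes found in the files, 13 had no count at day 3 and 1 had none at day 5. Rhox5, a homeobox gene of the X-linked Rhox cluster, was at 2.44 CPM in 10.3% of cells and at 98.8 CPM in 37.97% (40.5-fold, edgeR adjusted p = 2.78e-10). Morc1, which represses transposons in male germ cells, was at 1.74 and 79.6 CPM (45.6-fold, edgeR adjusted p = 7.48e-08). Tdrd12, a component of the piRNA pathway, was at 0.138 and 38.3 CPM (278-fold, edgeR adjusted p = 1.88e-12). Dazl, an RNA-binding protein of germ cells, had no count in either set of day 3 and 7.98 CPM in 11.4% of the day 5 cells, at least 347-fold higher. Rhox6 and Rhox9 rose too, also from no count, and since the members of this cluster are alike in sequence the division of reads between them is uncertain. Ddx4, the germ cell helicase, was at 0.0306 and 3.03 CPM without a call, with 82.3% of the day 5 counts in 1 cell. The median cell of both days held 1 germline transcript, while the highest held 3 at day 3 and 11 at day 5. Of the 7 calls 5 held when b1 was left out at day 3 and 5 when b2 was.

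The metabolic, ribosome biogenesis, AP-1 and p38 lists had 1 call in all. Of 25 oxidative phosphorylation genes none was called, and the median log2 ratio was −0.02 with 10099 and 9373 CPM in sum. The 20 cholesterol synthesis genes had no call (median −0.04, 2744 and 2751 CPM in sum). Of the 20 ribosome biogenesis genes 19 were higher within b2, with a median log2 ratio of 0.57 and no call, among them Npm1, nucleophosmin (2825 and 4607 CPM), and Ncl, nucleolin (826 and 1598 CPM). Of 20 glycolysis genes Ldhb fell (2228 and 800 CPM, edgeR adjusted p = 0.000960), with 4658 CPM in the b1 set of day 3 and no call without that set (adjusted p of 1). The 12 AP-1 genes and the 12 genes of the p38 pathway had no call. These lists leave out Jdp2 and Map2k6, which are counted with the factors of the cocktail above and fell. Over the 9 and 7 members with 10 or more CPM the median log2 ratios were −0.67 and −0.77. Fos was at 372 and 139 CPM, found in 100% and 62.02% of cells, and Junb at 33.4 and 6.31 CPM (edgeR adjusted p = 0.0660).

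Imprinted genes, expressed from 1 parental allele, moved in both directions. Igf2, a growth factor, was found in every day 3 cell and in 49.4% of the day 5 cells (825 and 206 CPM, 4-fold lower) and fell (edgeR adjusted p = 0.00561). Its neighbour H19 was found in 100% and 51.9% of cells (1236 and 513 CPM) and did not pass (edgeR adjusted p = 0.111). Peg3, a zinc finger gene, rose (102 and 296 CPM, edgeR adjusted p = 0.00876), as did Snrpn (70.3 and 194 CPM, 0.0341), whose transcript also holds Snurf. With Cdkn1c that gives 2 rises and 2 falls among 18 genes. None of the 4 held when b1 was left out at day 3, and Cdkn1c held when b2 was.

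Of 20 interferon response genes Ifit1 and Cxcl10 fell, and both were low in b2. Ifit1 was at 10.3 CPM in 12.1% of the day 3 cells and at 0.0964 CPM at day 5, and the b1 set of day 3 had 39.7 CPM. Cxcl10 was at 0.658 CPM, all of it in 1 cell, and at 0, with 4.74 CPM in b1. Neither call held without each gene's highest cell. Of 14 stress and dissociation genes Ier3 fell (56.6 and 6.28 CPM, edgeR adjusted p = 0.00785). That call did not hold without either set of day 3, nor without each gene's highest cell. The summed level of the stress list was 5219 CPM at day 3 and 7453 CPM at day 5, mostly from Hsp90aa1 (1745 and 3544 CPM) and Hspa8 (2810 and 3242 CPM).

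The largest ratios within b2 were taken among genes with 20 or more CPM and detection in at least 25% of the cells of the higher day, and no cell with over 25% of its counts. Trap1a, an X-linked gene of placenta and germ cells, had 2 counts at day 3 and 68.1 CPM at day 5 (ratio as counted 4452, 1232 to 36764, and 2968 against the floor of 3 counts), in 43.04% of cells. Tcl1, a coactivator of the kinase Akt, had no count at day 3, nor in b1, and 45.7 CPM in 32.9% of the day 5 cells, at least 1992-fold higher. Lin28a came next, followed by Lncenc1, a long noncoding RNA of naive stem cells (298-fold), Tdrd12, AU018091 (132-fold) and Triml2 (124-fold). Calcoco2 (97.8-fold), Ptgis, prostacyclin synthase (84.03-fold), the zinc finger gene Zfp936 (82.4-fold), Ap1m2 and Mageb16, of the MAGE family (65.5-fold), completed the 12. All but Triml2, which had 6.40 CPM in the b1 set of day 3 (edgeR adjusted p = 0.275), also rose over sets, in a test that holds the same b2 sets.

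All 12 genes with the largest ratios downward fell over sets, in the same test. Ltbp3, which stores latent TGF-beta in the matrix, was at 36.9 CPM in 50% of the day 3 cells and at 0.0964 CPM at day 5 with no cell at 1 TPM (383-fold lower, 242 to 647). Col6a3 and Col7a1, the collagen of anchoring fibrils (62.6-fold), came next. Slc16a10, a transporter of aromatic amino acids (59.1-fold), Tnfsf9, the 4-1BB ligand (45.2-fold), and Tnfaip2 (28.6-fold) followed. Sema3c, a secreted guidance cue, was found in 96.6% and 17.7% of cells (371 and 16.2 CPM, 22.97-fold lower), and Igfbp7 in 98.3% and 17.7% (19.03-fold). Lrrc32, which anchors latent TGF-beta at the cell surface (20.9-fold), Tcim (18.03-fold), Sox9, a transcription factor of cartilage progenitors (17.98-fold), and Cryab, a small heat shock protein (17.4-fold), closed the list. Of Cryab 71.4% and of Sema3c 50.3% of the day 5 counts were in 1 cell.

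Markers of other cell types had no direction common to all lists. Among members with 10 or more CPM, all 3 mesoderm markers were at least 4-fold higher (median log2 ratio 3.21). All 4 formative markers were higher, 2 of them at least 4-fold (3.09). Of 6 neural markers 1 was higher (−0.82), and of 3 trophectoderm markers 1 (−0.99). Of the endothelial, trophectoderm, 2-cell stage and formative lists no gene was called. Of the 10 macrophage and blood markers 7 had no count at day 3 and 5 none at day 5, with Lyz2, Tyrobp and Adgre1 at 0 in both. The call of that list, Hba-a1, was at 1.11 and 0.0107 CPM in b2 and at 16.4 CPM in the b1 set of day 3. Among 10 neural markers Nefm fell (95.2 and 12.8 CPM), and Stmn2 stood at 138 and 201 CPM. The Nefm call held when b2 was left out at day 3, but not when b1 was, nor without each gene's highest cell. Of 8 mesoderm markers T, brachyury, rose (1.82 CPM in 1 cell and 34.6 CPM in 17.7% of cells, edgeR adjusted p = 0.00191). The T call did not hold when b1 was left out at day 3, and held when b2 was. Mixl1 was called as a fall from 580 CPM in b1 at day 3, while within b2 it was 9.24-fold higher with 79.5% of the day 5 counts in 1 cell. Of 9 primitive endoderm markers Sox17 had no count at day 3 and 0.509 CPM at day 5, and Gata4 was found in 1 day 5 cell. Summed over each list, macrophage and blood markers had 2.41 CPM at day 3 and 19.9 at day 5, neural markers 336 and 268, 2-cell stage markers 544 and 495, endothelial markers 47.4 and 54.9 CPM, trophectoderm markers 49.7 and 56.9, primitive endoderm markers 127 and 101, mesoderm markers 13.9 and 134, and formative markers 36.4 and 120. Of the 79 day 5 cells 9 lay above the day 3 range in the macrophage and blood score, 7 in the mesoderm score and 1 each in the endothelial, trophectoderm, primitive endoderm and formative scores, and 7 lay below it in the neural score. The part of such cells in the results above was not tested.

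The day 5 cells differed widely among themselves in fibroblast and pluripotency genes. A score per cell was the mean log2(TPM + 1) over a list. The pluripotency score ran from 0.46 over a median of 1.44 to 5.49 at day 3 and from 0.41 over a median of 1.98 to 7.01 at day 5, with an SD over cells of 1.14 and 2.26. The medians were close, and 27 of 79 day 5 cells lay above the highest day 3 cell. The fibroblast score ran from 1.04 over 2.27 to 6.30 at day 3 and from 0.59 over 1.04 to 3.85 at day 5, and 40 of 79 lay below the lowest day 3 cell. Of the 79 cells 26 passed both day 3 limits, 1 passed that of pluripotency alone, 14 that of fibroblast genes alone and 38 neither. In counts of genes, the day 3 cells held a median of 10.5 of the 31 pluripotency genes and 16 of the 35 fibroblast genes, and the day 5 cells 14 and 6.

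**Figure D4:**
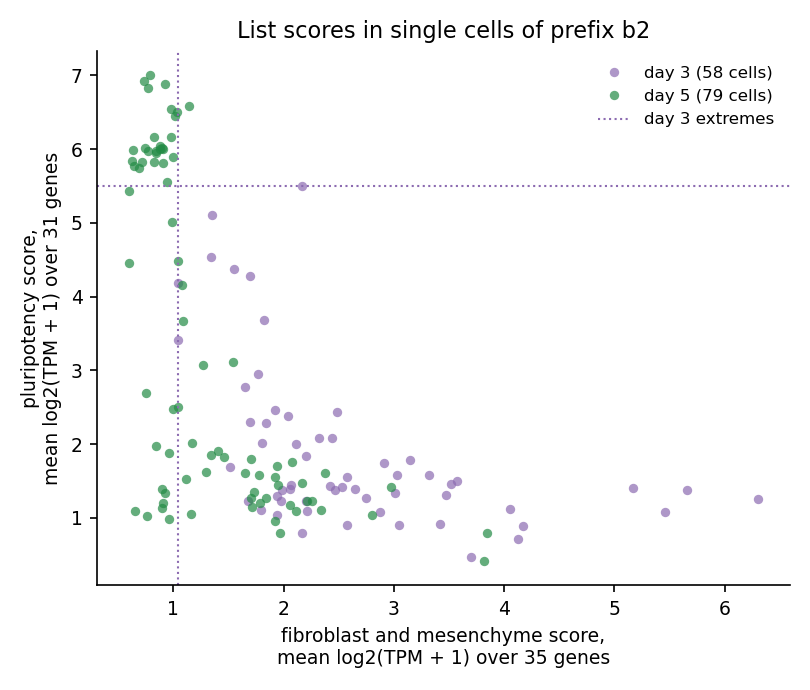
Fibroblast and mesenchyme score (x axis, 35 genes) and pluripotency score (y axis, 31 genes) of each cell of prefix b2, as mean log2(TPM + 1), at day 3 (58 cells) and day 5 (79 cells). Dotted lines mark the lowest fibroblast and the highest pluripotency score of day 3. The upper left part holds 26 day 5 cells, the lower left 14 and the lower right 38.

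Several lists followed the pluripotency score across the 79 day 5 cells. Pearson's r (Spearman's rho) was 0.82 (0.79) with the germline score, 0.68 (0.74) with the epithelial, 0.64 (0.65) with the Polycomb and 0.49 (0.54) with the replication score. It was −0.63 (−0.62) with the fibroblast score, −0.64 (−0.55) with AP-1 genes and −0.71 (−0.65) with imprinted genes. Cholesterol synthesis had −0.49 (−0.49), contractile genes −0.61 (−0.67), stress and dissociation genes 0.45 (0.50), neural markers 0.48 (0.47), trophectoderm markers 0.38 (0.39), macrophage and blood markers 0.37 (0.28) and mesoderm markers −0.35 (−0.41). With the factor score r was 0.25 (0.25), with oxidative phosphorylation 0.11 (0.11) and with log2 counts per cell −0.03 (0.03). These points are cells of 1 set, so the values are a description. At day 3 the pluripotency score had r = 0.65 (0.57) with replication, −0.50 (−0.58) with fibroblast genes and 0.26 (0.19) with germline genes over 58 cells.

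Factor transcripts and pluripotency genes were also compared cell by cell. At day 5 Dppa5a had r = −0.31 (−0.23) with Jdp2 and −0.35 (−0.32) with Map2k6. The factor score includes Nanog, Esrrb and Sall4, which native pluripotent cells also express. It lay below the lowest day 3 cell in 31 day 5 cells, and 2 of these were among the 27 cells above the day 3 limit of pluripotency. The inhibitor and p53 score had 39 of 79 cells below the day 3 range, the AP-1 score 35 and the imprinted score 30. The replication score had 6 and the G2/M score 1 of 79 cells above the day 3 range, although its median went from 2.15 to 5.65. The oxidative phosphorylation and cholesterol scores of all 79 cells lay within the day 3 range.

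The sets of b2 at the other days place both days in the course, as values without a test. Dppa5a was at 0.00662 CPM at day 0, 0.158 at day 1, 40.5 at day 3, 1334 at day 5 and 2562 at day 7. Lin28a had no count at day 0 and 0.00830 CPM at day 1, and stood at 167 CPM at day 7, below the 228 of day 5. Jdp2 was at 346, 323, 247, 26.9 and 4.76 CPM on the same 5 days. Mcm5 was at 38.4, 63.6, 89.1, 246 and 294 CPM. Esrrb stayed at 135 CPM at day 7 beside 159 at day 5, whereas Nanog was at 366 CPM at day 7 beside 198. Col6a3 was higher at days 1 and 3 (152 and 182 CPM) than at day 0 (51.2 CPM), and was at 0.119 CPM at day 7.

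**Figure D5:**
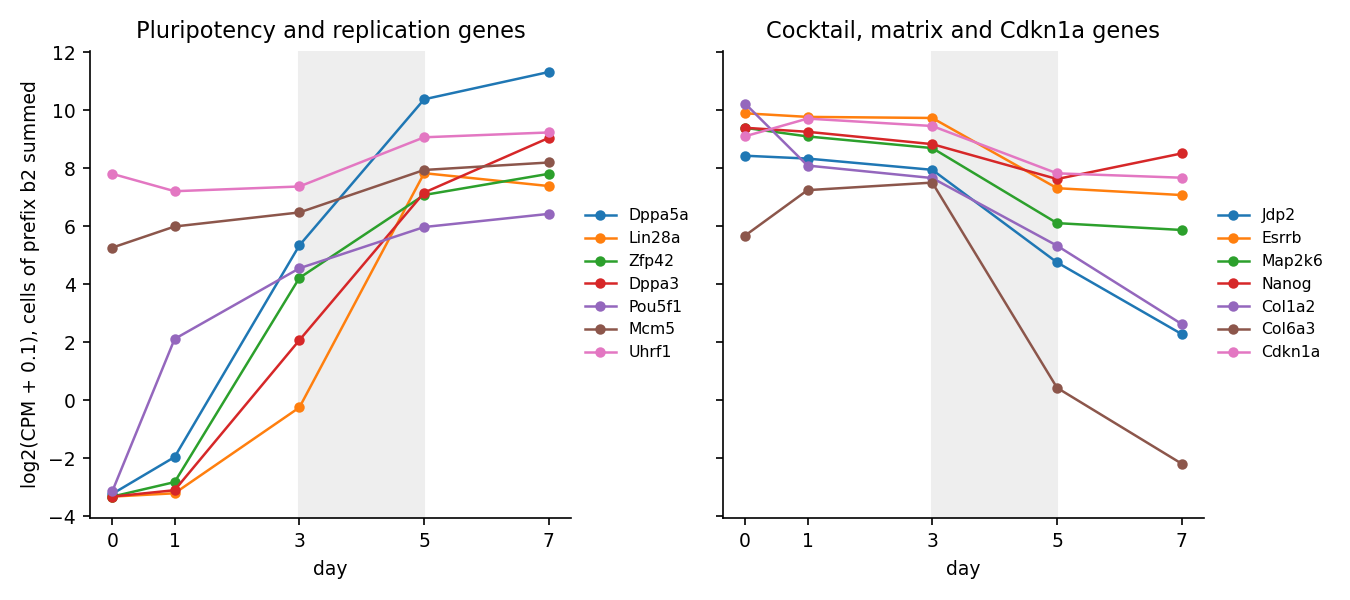
Summed level of 14 genes in the b2 sets of days 0, 1, 3, 5 and 7, as log2(CPM + 0.1), with 1 set per day and no error. Grey marks the step from day 3 to day 5. Dppa5a, Lin28a and Dppa3 climb and Jdp2, Esrrb, Map2k6 and Col6a3 descend within the grey band, and Nanog is higher at day 7 than at day 5.

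The 5 cells of prefix b1 taken on day 5 were too few for the test. Their Dppa5a levels were 4725, 5.94, 13079, 2008 and 0 TPM, and their Jdp2 levels, in the same order, 0, 78.6, 0, 6.51 and 426 TPM. Esrrb stood at 48.3, 334, 16.4, 67.3 and 1394 TPM. The 3 cells with 2008 TPM or more of Dppa5a had 6.51 TPM or less of Jdp2, and the others had 78.6 or more. These limits were read from the same 5 cells. In b2 at day 5 21 of 79 cells held both transcripts and 38 held Dppa5a alone. Among the 21 was a cell with 10647 TPM of Dppa5a and 105 TPM of Jdp2.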

How the data were processed

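Single cells were captured on the Fluidigm C1 and sequenced, and each cell is 1 sample. The authors deposited expected counts per gene, and TPM values per gene, made with bcl2fastq and RSEM 1.2.22 per the submitters' processing notes; for aligner, genome build, annotation and strand nothing is stated in the sources used here. The count table held 31673 genes, 31426 with a symbol, and 31137 TPM rows were matched to it, 470 by an older symbol. Of the deposited expected counts 9.11% were not whole, since RSEM divides shared reads, and there were no molecular identifiers. Mitochondrial genes were not analysed here, and no doublet caller was run.

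Per prefix and day the expected counts of all cells were added up and then rounded. Within b2, TMM-scaled CPM were compared, and a gene counted as past the fold with a ratio of 4 or more and 10 CPM in the higher day. Sets with fewer than 3 counts of a gene were raised to a floor of 3 counts, and for 1 or 2 counts the ratio as counted is given beside it. Shares of cells carry exact Clopper-Pearson 95% intervals, and all intervals cover counting error only. The test was edgeR's quasi-likelihood F test (edgeR 4.0.16, limma 3.58.1, R 4.3.3) on 8 sets with day as the term, filterByExpr and TMM, two-sided, with 2 residual degrees of freedom. What the prefixes stand for is not stated, so p-values rest only on the spread between these sets, which may be technical. The prior degrees of freedom came out infinite, so that spread was pooled over genes. No gene's own spread between sets set its SE or p-value. DESeq2 1.42.0 and limma served as alternatives, with Python 3.11.15, numpy 2.4.6, pandas 2.3.3, scipy 1.17.1 and matplotlib 3.10.9. The edgeR steps were tested on simulated data.

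The gene lists and the compared cells were chosen with earlier results of these data known. Named genes were a standing list of markers and factors, the 12 largest ratios in each direction, and from each list up to 4 genes with the smallest adjusted p and 2 abundant ones that did not pass, some left out for length. Other genes (Klf5, Birc5, Eed, Suz12, Timp1, Ddx4, Stmn2, Sox17 and Gata4 among them), and the TPM bands, were chosen after their values were seen. Predicted genes, pseudogenes, ribosomal and histone genes were not among the largest ratios. Promoters are RefSeq's on GRCm38.p6, 32851 of 27025 genes; 16 of the 24 genes with the largest ratios had one.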

Additional observations from a re-analysis of the deposited data

How the results depend on the processing

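Within b2, 341 genes were higher and 704 lower past the fold; mean TPM with a pseudocount of 1 gave 172 and 443, a pseudocount of 0.1 gave 208 higher, a minimum of 50 CPM gave 54 and 200, no minimum 2674 and 2738, and a ratio of 2 gave 1264 and 1920. Over sets, beside 144 rises and 239 falls, DESeq2 gave 236 and 762 (97 and 211 shared), limma on log2(mean TPM + 1) gave 0 and 0 with 2050 genes at an unadjusted p under 0.05, and all 10 sums gave 5 and 7. With 1 set left out in turn there were 42 to 282 rises and 106 to 408 falls, with 42 and 119 without b1 of day 3, 111 and 106 without b2 of day 3, and 282 and 408 without b2 of day 0. With prefix as a replicate block 6 rose and 17 fell. The prefix numbers were not shown to pair sets (correlation of deviations 0.08 over 2 pairs). Under the block Dppa5a and Lin28a passed (edgeR adjusted p = 0.0199 each), and Jdp2 (0.0530) and Mcm5 (0.416) did not. None of the 7 factors was called under it, 3 of the pluripotency genes were (Dppa3, Dppa5a and Lin28a) and 3 of the fibroblast genes (Col6a3, Fbln2 and Loxl1).

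Fitted log2 changes turned sign as follows, and the cause was not tested. Under the block Sox2 was −0.19, Pola2 1.00 and Mixl1 2.81. With all 10 sums Cdkn1a was 0.20, Col1a1 0.95, Col1a2 1.57, Prrx1 0.27, Vim 0.32, Sparc 0.64, Mylk 0.85, Tcim 1.65, Col6a1 1.63, Col6a2 0.64, Mdm2 0.93, S100a6 0.38, Timp1 0.60 and Timp2 1.06. With limma Fn1 was −0.14 and Timp1 0.19, and without the highest cell Timp1 was 0.011. Leaving out sets, the changes ran from −0.28 to 1.27 for Sox2, −1.31 to 0.89 for Pola2, −0.35 to 1.16 for Cdkn2a, −3.70 to 0.79 for Thy1, −1.17 to 0.54 for Vim −0.73 to 1.12 for Timp1 and −3.21 to 3.21 for Mixl1. Of 135 genes of the text, RLE size factors kept the direction and the side of the threshold for 132, no filter for 132 and leaving out cells under 7000 genes for 131. The same held for 109 without the highest cell, for 99 without b2 and 87 without b1 of day 3, for 58 under the block, for 49 with all 10 sums and for 45 with limma, and DESeq2 kept 115.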
